A study of Homo sapiens with 12 samples.

Results

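The genes described here code for the initiation and elongation factors of cytosolic translation. They were chosen by symbol: an EIF or EEF stem followed by the number of the factor, with the EIF2AK kinases left out. The rule took 66 of 23284 symbols in a first experiment and 60 of 12421 in a second one. By factor, the 66 were 5 of eIF1, 5 of eIF2, 5 of eIF2B, 15 of eIF3, 16 of eIF4, 5 of eIF5, 1 of eIF6 and 10 of eEF. The other 4, EIF2C1 to EIF2C4, are older symbols of the Argonaute proteins of microRNA silencing and are no initiation factors.

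HEK293 cells, a line from human embryonic kidney, gave RNA from their polysome fractions 24 h after transfection with 5 ug of plasmid, either empty vector or one that expresses STING. STING, listed under its older symbol TMEM173, is an adaptor of cytosolic DNA sensing, and the series asks whether it acts through PERK to select mRNAs for translation. The first experiment had 2 vector and 2 STING libraries. In the second, called the knockout experiment, wild-type HEK293 cells and HEK293 cells labelled as PERK knockouts each gave 2 vector and 2 STING libraries. All 12 libraries came from cells held with cycloheximide, which stalls ribosomes on mRNA, and lysates were spun through sucrose gradients. The sources used here do not state how the knockout was made or whether it is a single clone. Nor do the labels call the libraries of a group separate cultures, and the p-values then cover library spread alone, possibly technical.

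The values are FPKM, fragments scaled to transcript length and library size, so levels of different genes are compared per length. Neither table gives counts and the depth is unknown. TMEM173 went from 14.9 and 13.8 FPKM (vector) to 65157 and 69253 (STING) in the first experiment. In the later one it went from 23.1 and 36.7 to 41812 and 40660 in wild-type cells, and from 23.5 and 43.8 to 10512 and 7338 in knockout cells. EIF2AK3, the gene of PERK, was at or near the lowest listed value in all 8 libraries of that experiment, wild-type cells included, and does not check the knockout label. Of 9 markers of HEK293 cells, 7 had a mean of at least 1 FPKM in the first experiment. In the second, 9 had a mean above 1, which is the lowest value listed there, so this checks little. One of them, VIM, rose with STING in the first experiment, from 47.5 and 44.9 to 75.0 and 75.1 (log2 change 0.69, SE 0.13, limma adjusted p = 0.0157). It missed the threshold once either STING library or vector library 2 was dropped, and without limma's intensity trend and robust estimation. Over the alternative fits its log2 change ran from 0.64 to 0.91. Its part in the members' values was not tested. Summed blood markers were at most 9.96 and 14.3 in the first and second experiment. Summed hepatocyte markers were at most 4.63 and 8.79, and summed fibroblast markers at most 0.335 and 1.75. These pairs of sums cover unlike sets. The second experiment listed only 2 of 5 blood, 1 of 4 hepatocyte and 1 of 5 fibroblast markers, with 1 as the lowest value.

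A mean of at least 1 over a table was needed for a test, and 57 of 66 members met it in the first experiment. The other 9 were EIF1AY, EIF2C1, EIF2C4, EIF3C, EIF3CL, EIF3IP1, EIF4E1B, EIF4EBP3 and EIF5B. In the knockout experiment 59 of 60 were tested, since EIF2C4 stood at the lowest value of 1 in all 8 libraries, and EEF1DP3, EEF1E1-MUTED, EIF1AY, EIF3C, EIF3CL and EIF3IP1 were not analysed there. Of the Argonaute genes, none passed in any comparison with limma, at an adjusted or an unadjusted p under 0.05.

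Translation starts when eIF2, bound to GTP, brings the initiator tRNA to the small ribosomal subunit, where eIF1, eIF3 and eIF5 also sit. The eIF4 group recognises the mRNA cap and unwinds the leader. PERK and related kinases phosphorylate the alpha subunit of eIF2, which then blocks eIF2B, the exchange factor that reloads eIF2 with GTP, and initiation slows. In elongation, eEF1A delivers aminoacyl-tRNA, the eEF1B subunits recharge eEF1A, and eEF2 moves the ribosome along. Many mRNAs of elongation factors, like those of ribosomal proteins, open with a C followed by a run of C and T bases. This terminal oligopyrimidine (TOP) start places their translation under control of the kinase mTOR.

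With STING in the first experiment, 10 of 57 tested members rose and 1 fell by limma's adjusted p (2.51% of the 9464 genes tested rose and 9.29% fell). The 10 were EEF2, EEF1A1, EEF1G, EEF1D, EIF3D, EIF3E, EIF3A, EIF4A2, EIF4B and EIF1. EIF3K fell as deposited. With quantile normalization, the 1 alternative setting in which its sign turned, its log2 change was 0.04 (limma adjusted p = 0.842). That setting also moved the median log2 change of all members from 0.21 to 0.39. The median log2 change was 0.21 over the members and -0.05 over all genes tested. Both STING libraries stood above both vector libraries for 29 members (24.2% of all genes) and below them for 12 (32.8%). At an unadjusted p under 0.05 there were 16 higher (8.82%) and 3 lower (18.9%). EIF4G3, in both higher counts, and EEF1DP3, among the 29, reached the mean of 1 needed for a test only through the STING libraries. Their vector means were 0.65 and 0.39 FPKM. These values are levels in the polysome fraction, so the amount of an RNA and its loading with ribosomes cannot be told apart, nor can fewer cells with an RNA and less of it per cell. The calls were lost when either STING library was left out, and some also without a vector library. Such a fit has 1 library in a group, so it cannot separate reliance on the library left out from a weaker test. Over the alternative fits, the log2 change of EEF2 ran from 1.25 to 1.74 and that of EIF3A from 0.44 to 1.30. The 10 higher members kept their sign. EIF3K missed the threshold with any 1 library left out. Without limma's intensity trend and robust estimation 0 members passed, against 17 of all genes.

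**Figure D1:**
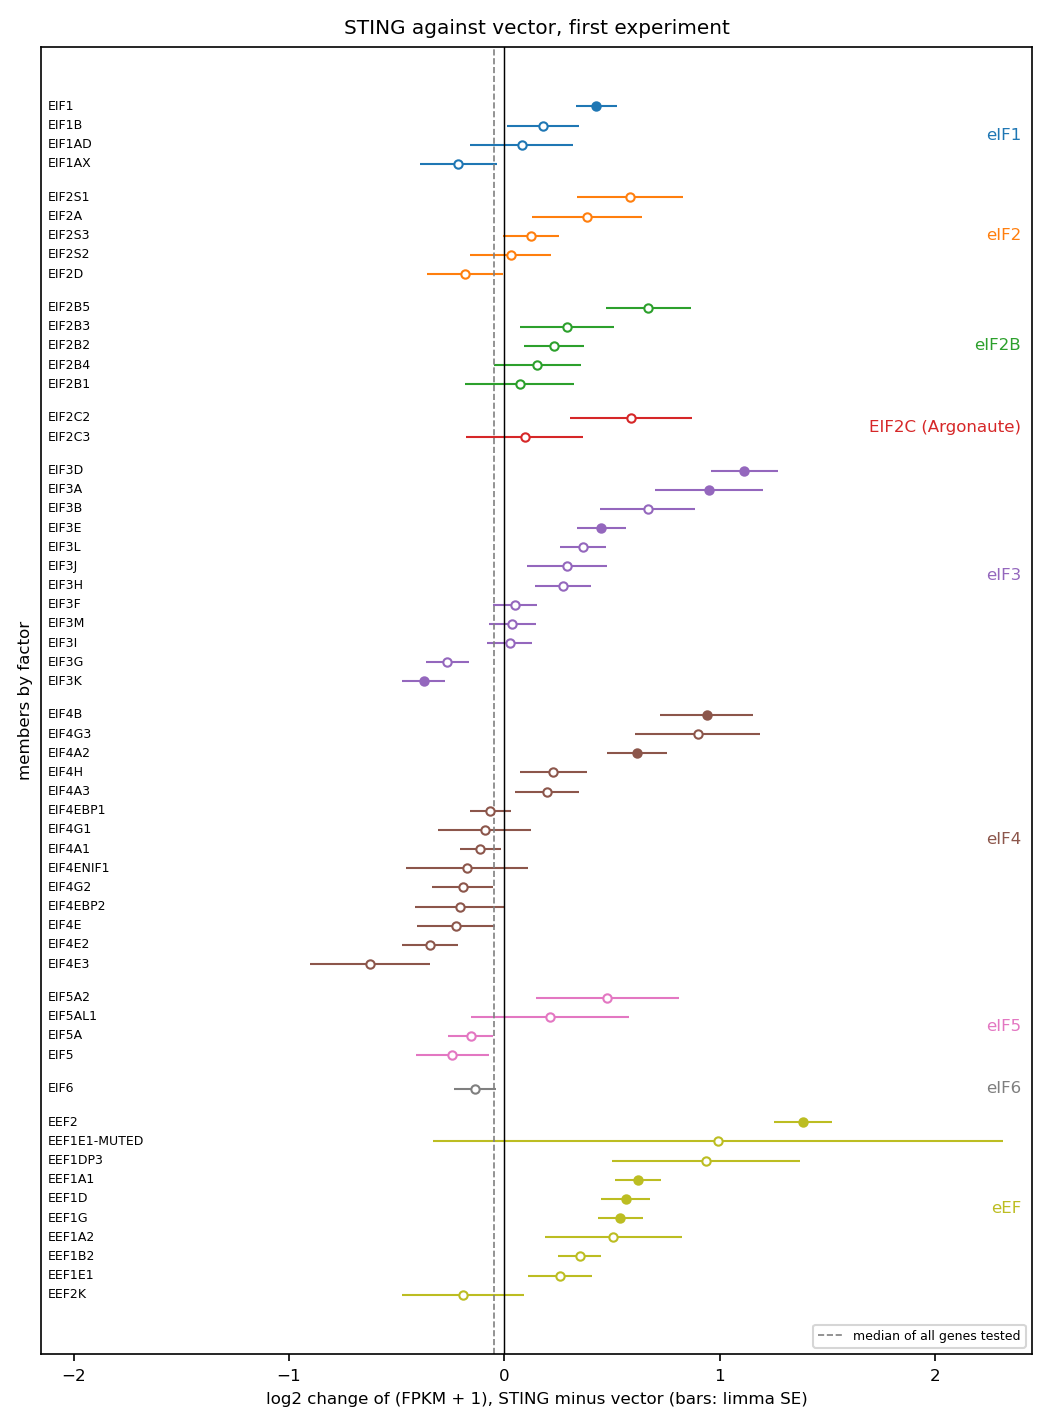
Log2 change of (FPKM + 1), STING minus vector, in the first experiment for the 57 tested members, grouped by factor, with limma standard errors as bars and filled points for members past an adjusted p of 0.05. The dashed line is the median of all genes tested, at -0.05. EEF2 (1.39) and EIF3D (1.11) stand farthest right among filled points, and the 1 filled point left of 0 is EIF3K, which stood at 0.04 with quantile normalization.

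Among members with an EEF symbol, 4 of 10 tested rose and none fell, with a median log2 change of 0.55. Counts and medians of elongation factors take this group by symbol alone, though EEF2K, EEF1E1, EEF1DP3 and EEF1E1-MUTED are no elongation factors. EEF2, the translocation factor, stood at 105 and 120 FPKM with vector against 268 and 324 with STING. Both STING libraries were far above both vector libraries (log2 change 1.39, SE 0.13, limma adjusted p = 0.00161). EEF1A1, which delivers aminoacyl-tRNA, stood at 1422 and 1626 with vector and at 2429 and 2252 with STING (log2 change 0.62, SE 0.11, limma adjusted p = 0.0108). Reads of EEF1A1 can be shared with its many processed pseudogenes and with EEF1A2, so its level carries that uncertainty.

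EEF1G and EEF1D belong to the exchange complex that recharges eEF1A. EEF1G, its gamma subunit, had the highest level of all members, 1905 and 2160 FPKM with vector and 2842 and 3056 with STING (log2 change 0.54, SE 0.11, limma adjusted p = 0.0168). EEF1D, the delta subunit, stood at 291 and 309 against 412 and 478 (log2 change 0.56, SE 0.11, limma adjusted p = 0.0191). In neither gene did the groups overlap. EEF1B2, the third subunit of the complex, went from 848 and 825 to 1120 and 1014 and missed the threshold (log2 change 0.35, limma adjusted p = 0.0642). It passed with a filter at a mean of at least 5, with quantile normalization and with a correction for transcript length. EEF2K, the kinase that inhibits eEF2, stood at 1.03 and 1.66 with vector and at 1.19 and 0.896 with STING (limma adjusted p = 0.713). EEF1A2, the form of eEF1A typical of muscle and neurons, ran from 0.523 to 1.97 FPKM over the 4 libraries. EEF1DP3 and EEF1E1-MUTED are a pseudogene entry and a readthrough entry. EEF1DP3 was listed at 0.771 and 0 FPKM with vector against 0.796 and 2.61 with STING and did not pass (limma adjusted p = 0.214), and EEF1E1-MUTED, at 0.0426 to 6.82, overlapped between groups. EEF1E1, which shares its name with the elongation factors but belongs to the complex of aminoacyl-tRNA synthetases, did not pass (log2 change 0.26, limma adjusted p = 0.306).

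The starts of these mRNAs are shown because a TOP start is a sequence feature that the choice of members did not use. Each line gives 10 bases before and 20 bases from the RefSeq start in GRCh38.p14, on the gene's own strand, and capitals mark the run of C and T bases that begins with C exactly at the start.
EEF2, chr19:3985444-3985473, minus strand: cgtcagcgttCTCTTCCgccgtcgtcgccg
EEF1A1, chr6:73521013-73521042, minus strand: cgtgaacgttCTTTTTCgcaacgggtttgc
EEF1B2, chr2:206159885-206159914, plus strand: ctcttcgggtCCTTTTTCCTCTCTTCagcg
EIF3D, chr22:36529147-36529176, minus strand: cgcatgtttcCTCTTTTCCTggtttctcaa
EIF4A2, chr3:186783567-186783596, plus strand: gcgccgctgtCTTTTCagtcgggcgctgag
EIF4B, chr12:53006446-53006475, plus strand: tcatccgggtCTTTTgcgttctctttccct
EIF3K, chr19:38619178-38619207, plus strand: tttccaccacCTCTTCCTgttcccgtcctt
EEF1G, chr11:62573872-62573901, minus strand: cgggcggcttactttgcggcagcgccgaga
EIF1, chr17:41688875-41688904, plus strand: ccgcccctctgccccagtcactgagccgcc
EEF1G and EIF1 are printed without capitals because no such run begins at the start listed for them. Each window spans the annotated start, so its last 20 bases are the beginning of the first exon.

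A run was counted where C was followed by at least 4 C or T bases from an annotated start, read on the sense strand alone. It was searched at that fixed position, in any start listed for the gene, and this definition was chosen after the values had been seen. Of 66 members 53 had an entry in the RefSeq table, and 12 of the 53 had the run (22.6%), against 1404 of all 27305 symbols (5.14%). The 27305 symbols were not limited to genes tested here, so these shares come from unlike sets of genes. Besides the 7 printed above, the members with the run were EIF2A, EIF2D, EIF2S3, EIF3F and EIF3M. In the first experiment 5 of the 12 with the run rose and EIF3K alone fell, which it did not with quantile normalization, as given above. The median log2 change was 0.37 with the run and 0.12 over the 34 tested members without it, of which 2 rose. EEF1G and EIF1 are those 2, and EIF2D with the run stood at -0.18, so the sequences did not divide the members cleanly. A match describes the letters at an annotated start and not the start used in these cells.

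**Figure D2:**
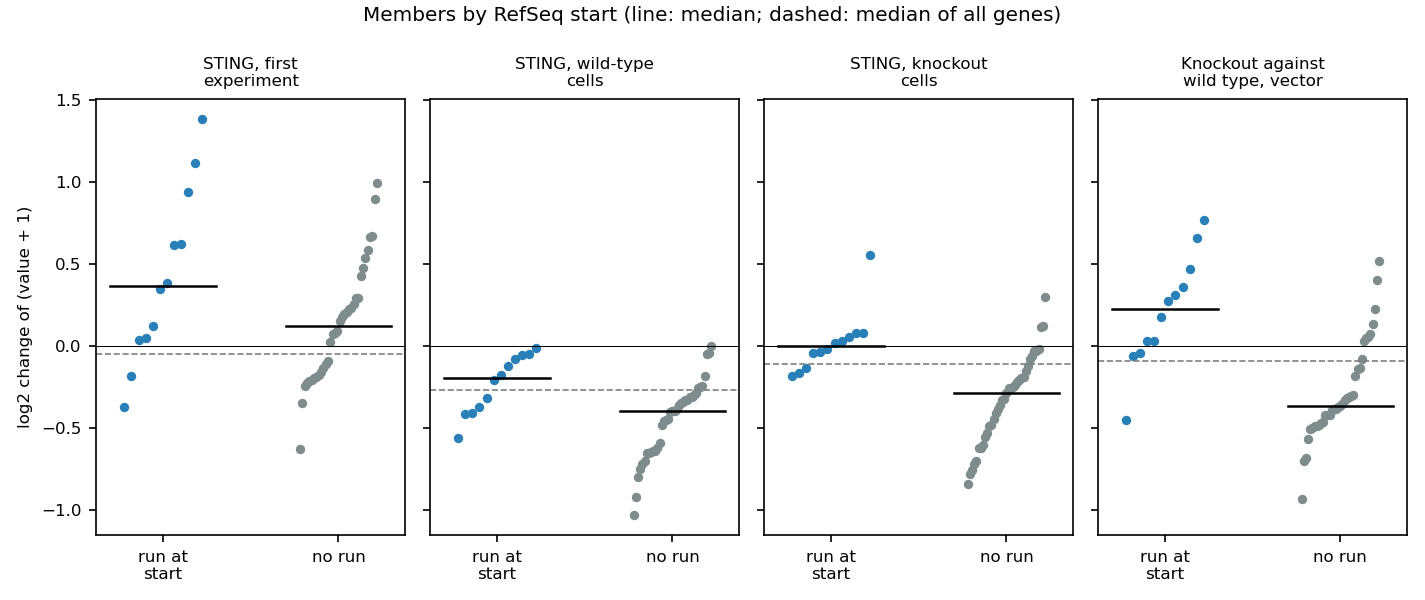
Log2 changes of members whose RefSeq start opens with C and at least 4 further C or T bases, beside those of members with an entry but no such run, in 4 comparisons; each point is 1 gene, placed in order of its change, bars are medians and dashed lines medians of all genes. In the first experiment the medians are 0.37 and 0.12, and in knockout against wild-type cells with vector they are 0.22 and -0.36, with overlapping points in both.

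A list of 9 members known for TOP mRNAs held EEF1A1, EEF1B2, EEF1D, EEF1G, EEF2, EIF3E, EIF3F, EIF3H and EIF4B. It overlaps the groups above, since EEF1A1, EEF1B2, EEF2, EIF3F and EIF4B also have the run. Its EEF genes are elongation factors already described, so its values are not independent of theirs. In the first experiment 6 of the 9 rose and none fell, with a median log2 change of 0.54, against 0.14 over the other 48 tested members, of which 4 rose and 1 fell. EIF3F had the smallest change of the 9, 439 and 419 FPKM with vector against 461 and 427 with STING (log2 change 0.05, limma adjusted p = 0.805).

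eIF3, the large scaffold that holds the mRNA and the other factors on the small subunit, had 12 tested subunits, of which 3 rose and EIF3K alone fell as deposited (0.04 with quantile normalization). The median log2 change was 0.28. EIF3D, a subunit that can bind the cap of some mRNAs, stood at 30.2 and 36.3 FPKM with vector against 75.4 and 70.3 with STING (log2 change 1.11, SE 0.15, limma adjusted p = 0.00506). This was the change next in size to that of EEF2. EIF3E, of the octamer that forms the core of eIF3, went from 137 and 150 to 194 and 198 (log2 change 0.45, SE 0.11, limma adjusted p = 0.0394). EIF3A, the core's largest subunit, had the lowest level of the 12, 1.40 and 1.55 with vector and 4.40 and 3.23 with STING (log2 change 0.95, SE 0.25, limma adjusted p = 0.0478).

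EIF3K, a small and accessory core subunit, stood at 430 and 453 FPKM with vector against 336 and 345 with STING (log2 change -0.37, SE 0.10, limma adjusted p = 0.0499). As deposited both STING libraries lay below both vector libraries, and with quantile normalization the change was 0.04 (limma adjusted p = 0.842). EIF3G, an RNA-binding subunit with the highest level within eIF3, went from 546 and 591 to 476 and 469 without passing (log2 change -0.27, limma adjusted p = 0.133). EIF3L (log2 change 0.36, limma adjusted p = 0.0685) and EIF3B (log2 change 0.67, limma adjusted p = 0.0929) came nearest to the threshold on the higher side. EIF3L passed with a mean of at least 5, quantile normalization and the transcript length correction. Subunits of 1 complex thus differed in the size of their changes and, as deposited, in sign. EIF3F, EIF3I and EIF3M had log2 changes between 0.02 and 0.05. EIF3C and EIF3CL, near-identical copies that counting can split, were listed at 0 in all 4 libraries, as was EIF3IP1. A 0 in such a table can be a failed estimate.

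In the eIF4 group 2 of 14 tested members rose and none fell, with a median log2 change of -0.10, which was -0.05 with median-of-ratios scaling and 0.19 with quantile normalization. EIF4A2, one of the helicases that unwind leaders, stood at 45.6 and 52.2 FPKM with vector against 75.1 and 75.7 with STING (log2 change 0.62, SE 0.14, limma adjusted p = 0.0280). Its close relative EIF4A1 stood higher, at 746 and 757 against 693 and 699, and did not pass (log2 change -0.11, limma adjusted p = 0.504). The 2 are alike in sequence, so reads may be split between them. EIF4B, the RNA-binding cofactor of eIF4A, went from 6.43 and 6.93 to 15.9 and 11.8 (log2 change 0.94, SE 0.22, limma adjusted p = 0.0298).

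The cap-binding protein EIF4E stood at 29.8 and 39.2 FPKM with vector against 28.2 and 30.1 with STING, and the groups overlapped (limma adjusted p = 0.479). Its inhibitor EIF4EBP1 was among the most abundant members, 872 and 860 against 807 and 849 (limma adjusted p = 0.711). The scaffold EIF4G1 stayed between 4.62 and 5.30 in the 4 libraries, and EIF4G3 went from 0.506 and 0.80 to 2.59 and 1.62 (log2 change 0.90, limma adjusted p = 0.0867). EIF4E3, a divergent cap-binding relative, had the lowest change of all members, from 2.05 and 3.06 to 1.01 and 1.60 (log2 change -0.62, limma adjusted p = 0.193).

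None of the 5 eIF2 members and none of the 5 eIF2B members passed in limma's test, with 1 of each higher at an unadjusted p under 0.05. The eIF2 members are the subunits EIF2S1, EIF2S2 and EIF2S3, with EIF2A and EIF2D placed there by symbol alone. EIF2S1, the alpha subunit that PERK phosphorylates, stood at 3.68 and 2.87 FPKM with vector against 6.19 and 4.65 with STING (log2 change 0.58, limma adjusted p = 0.174). The beta subunit EIF2S2 overlapped between groups, with 31.5 and 26.2 against 32.9 and 26.1, and the gamma subunit EIF2S3 stood at 57.1 and 58.9 against 63.5 and 63.0. EIF2B5, the catalytic subunit of eIF2B, went from 10.9 and 14.5 to 20.4 and 20.9 (log2 change 0.67, limma adjusted p = 0.0695). It passed under other settings, median-of-ratios scaling and quantile normalization among them. EIF2B1 to EIF2B4 had log2 changes of 0.07, 0.23, 0.29 and 0.15, with limma adjusted p from 0.335 to 0.889.

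EIF1, which guards the choice of the start codon, stood at 631 and 609 FPKM with vector against 853 and 815 with STING (log2 change 0.43, SE 0.10, limma adjusted p = 0.0282). Its paralog EIF1B overlapped between groups, with 84.9 and 112 against 121 and 102, as did EIF1AX, with 29.4 and 37.9 against 29.5 and 27.8. In eIF5, 0 of 4 tested members passed in limma's test and 0 had an unadjusted p under 0.05. EIF5, which triggers GTP hydrolysis by eIF2, stood at 21.1 and 21.4 against 17.6 and 18.0 (log2 change -0.24, limma adjusted p = 0.407). EIF5A, the hypusinated factor that eases elongation at prolines and shares reads with the near-copy EIF5AL1, stood at 389 and 422 against 378 and 348 (limma adjusted p = 0.393). EIF6, which keeps the ribosomal subunits apart, stood at 540 and 517 against 475 and 488 (limma adjusted p = 0.427). Across the members, longer transcripts had lower FPKM (Spearman rho -0.573 over 55 members with a length, -0.513 over all genes), as a description of levels that share libraries.

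Other genes of the pathway were taken from lists of its textbook parts. Of 7 poly(A)-binding proteins and partners, PABPC1, which bridges the tail to eIF4G and has a TOP mRNA, rose from 69.0 and 76.9 FPKM to 146 and 127 (log2 change 0.89, SE 0.13, limma adjusted p = 0.00629). Of 15 tested kinases, phosphatases and inhibitors 2 rose and 1 fell. PPP1R15A (GADD34), which brings phosphatase 1 to phosphorylated eIF2alpha, went from 9.71 and 10.6 to 23.0 and 27.1 (log2 change 1.22, SE 0.18, limma adjusted p = 0.00630). PPP1CC, a catalytic subunit of phosphatase 1, rose by 0.70 and MKNK2, a kinase of eIF4E, fell by 0.59 on the log2 scale (limma adjusted p = 0.0186 and 0.0307).

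Among 6 helicases and ABC proteins of initiation, ABCF1 rose from 1.36 and 1.60 to 4.22 and 4.62 FPKM and DDX3X from 5.56 and 8.40 to 13.9 and 13.0 (limma adjusted p = 0.0214 and 0.0473). Of 7 hypusine and diphthamide enzymes, which modify eIF5A and eEF2, DPH5 fell by 0.70 on the log2 scale (limma adjusted p = 0.0401). Of 10 mitochondrial translation factors, TUFM, which brings aminoacyl-tRNA to mitochondrial ribosomes, fell by 0.40 as deposited and stood at 0.06 with quantile normalization (limma adjusted p = 0.0421 and 0.752). Like those of the members, the calls of these 8 genes were lost when either STING library was left out. Such fits leave 1 library in a group. None of 7 factors of termination and recycling passed in limma's test, with 2 higher at an unadjusted p under 0.05. In the knockout experiment none of the genes on these lists passed in any comparison.

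The knockout experiment asks whether the response to STING needs PERK. In wild-type cells 0 of 59 tested members passed in either direction with limma (0.00816% of the 12254 genes tested were higher, which is TMEM173 alone, and 0% lower). At an unadjusted p under 0.05 there were 0 higher (0.441% of all genes) and 9 lower (12.4%). Both STING libraries stood below both vector libraries for 43 members (52.3% of all genes) and above them for 0 (3.31%). The median log2 change was -0.34 over the members and -0.27 over all genes. With median-of-ratios scaling these medians were 0.03 and 0.05, and with quantile normalization -0.01 and 0.00, so the sign of the members' median depended on the scaling. Scaling factors were 1.12 and 1.25 for the wild-type vector libraries and 0.897 and 0.908 for the STING libraries.

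EIF4G2, a relative of eIF4G that lacks the cap-binding protein's site, had the lowest change in wild-type cells, from 76.6 and 92.6 to 40.0 and 41.5 (log2 change -1.03, limma adjusted p = 0.384). EIF4G1 went from 27.7 and 28.6 to 15.9 and 15.6, and EIF2B3, the gamma subunit of eIF2B, from 6.63 and 12.1 to 3.69 and 4.92 (log2 changes -0.80 and -0.92, limma adjusted p = 0.384 for both). EIF5A stood at 1045 and 898 against 720 and 549 (log2 change -0.62, limma adjusted p = 0.384). Of the genes called higher in the first experiment, none passed here. EEF2 stood at 200 and 228 with vector against 199 and 224 with STING, and EEF1A1 at 967 and 1359 against 1061 and 1158. EIF3D was at 60.8 and 69.7 against 60.7 and 58.9. Whether the response differed between the experiments was not tested, since the tables were made separately.

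**Figure D3:**
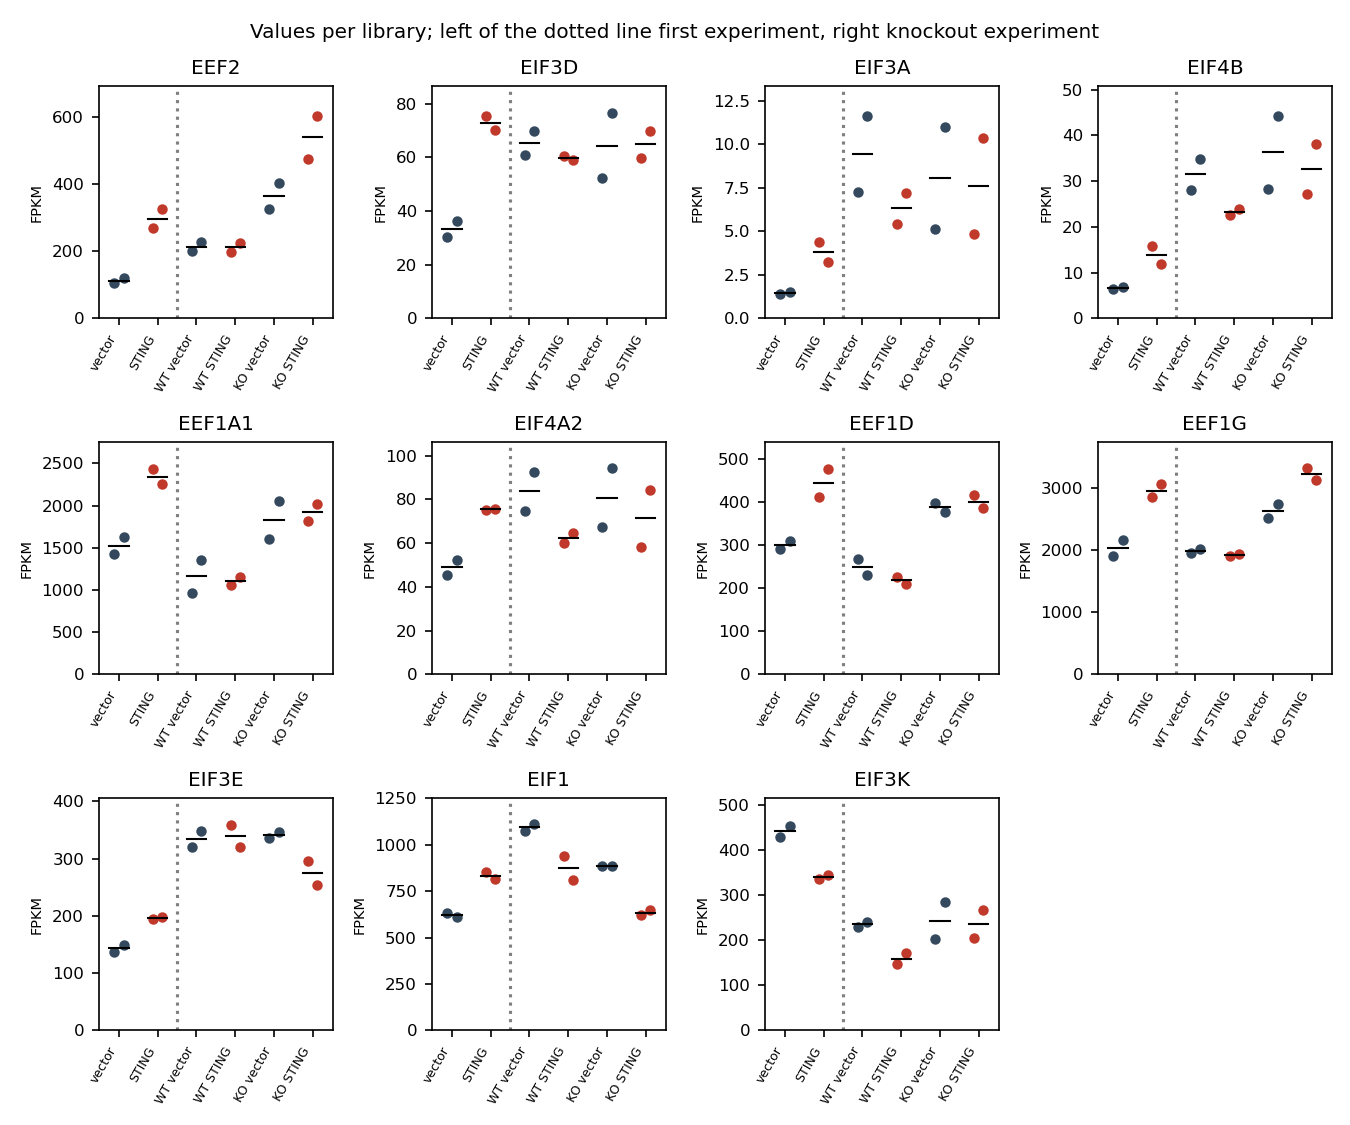
FPKM in each of the 12 libraries for the 11 members called in the first experiment; points are libraries, horizontal bars group means, and the dotted line divides the experiments, whose levels are not on a shared scale. EEF2 rises from 105 and 120 to 268 and 324 left of the line, while wild-type vector and STING libraries at its right overlap (200 and 228 against 199 and 224). EIF3K is lower with STING at the left as deposited, which was 0.04 on the log2 scale with quantile normalization.

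In PERK knockout cells 0 members passed with limma (0.00816% of all genes higher, again TMEM173, and 0% lower). At an unadjusted p under 0.05 there was 1 higher (1.06% of all genes) and 9 lower (6.64%). Groups did not overlap for 3 higher (5.66%) and 18 lower members (21.9%). The 1 higher was EEF2, at 327 and 404 with vector and at 474 and 604 with STING (log2 change 0.56, SE 0.20, limma adjusted p = 0.596). EEF1G stood at 2509 and 2730 against 3320 and 3113 (log2 change 0.30, limma adjusted p = 0.731). The median over the elongation factors was 0.10, over all members -0.19 and over all genes -0.11. Under median-of-ratios scaling these were 0.27, -0.02 and 0.04, and under quantile normalization 0.30, 0.00 and 0.00.

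Several initiation factors lay lower in knockout cells with STING. EIF3J, a loosely bound eIF3 subunit that aids recycling, went from 19.2 and 21.2 to 9.98 and 13.3 (log2 change -0.75, limma adjusted p = 0.508). EIF1 went from 887 and 887 to 620 and 651, and EIF5A from 984 and 1018 to 553 and 785 (log2 changes -0.48 and -0.60, limma adjusted p = 0.556 and 0.614). EIF4EBP1 went from 896 and 741 to 597 and 566 (log2 change -0.49, limma adjusted p = 0.642). In each of these 4 genes the groups were apart, and none of the 4 passed the threshold. EIF3J, EIF1 and EIF5A were also lower in wild-type cells with STING (log2 changes -0.72, -0.33 and -0.62), without passing. EIF4EBP1 stood at -0.002 there.

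The PERK dependence of the STING effect, taken as the effect in knockout cells minus that in wild-type cells, passed for 0 members with limma (0% of all genes in either direction). At an unadjusted p under 0.05 there were also 0 members (3.04% of all genes higher and 0.832% lower), and the lowest adjusted p of a member was 0.966. STING itself stood at 10512 and 7338 FPKM in knockout cells and at 41812 and 40660 in wild-type cells, and its part in these differences was not tested. Values ran from -0.48 for EIF4EBP1 to 0.73 for EIF2B3. EEF2 stood at 0.57 (SE 0.28, limma adjusted p = 0.966). The median was 0.37 for the elongation factors and 0.13 for all genes, and 7 of 8 elongation factors lay above the latter. One of the 7, EEF1A1, stood at 0.13, next to the median of all genes. eIF1 had a median of -0.13, eIF2 0.14, eIF2B 0.27, eIF3 0.13, eIF4 0.15 and eIF5 0.02. With median-of-ratios scaling the elongation factors' median was 0.17 and with quantile normalization 0.27. Those of eIF2, eIF4 and eIF5 turned below 0 under both, and that of eIF3 with median-of-ratios scaling.

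**Figure D4:**
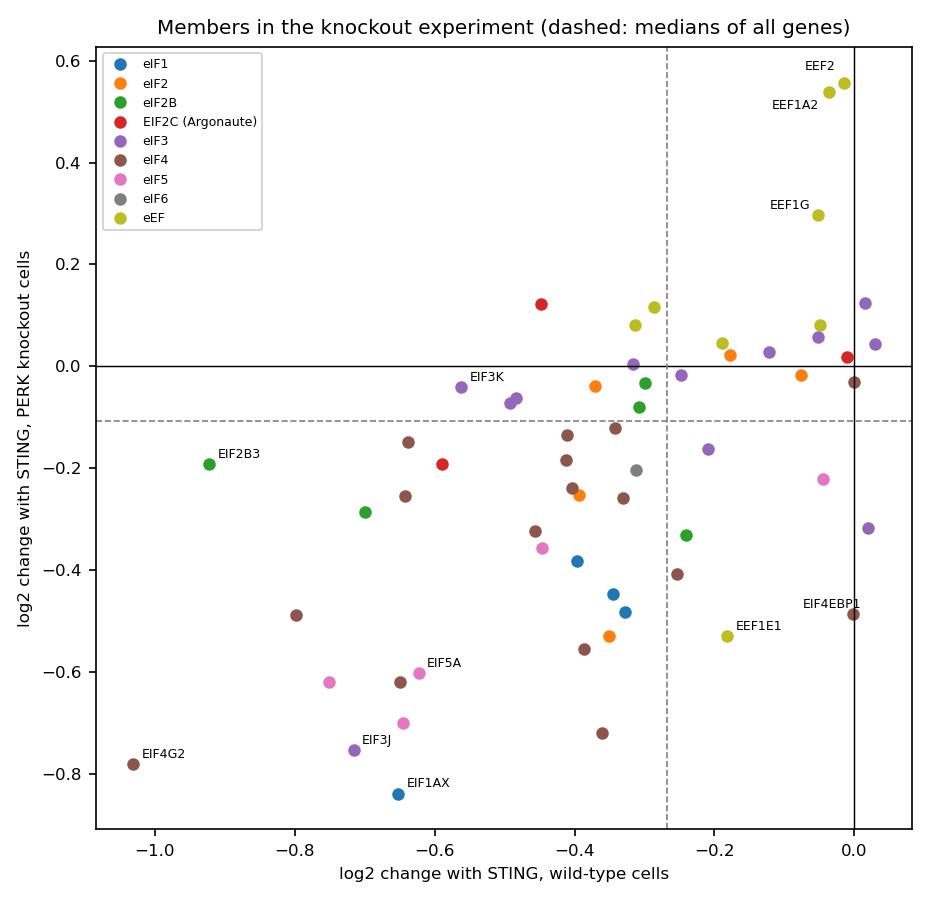
Log2 change with STING in wild-type cells (horizontal) against that in PERK knockout cells (vertical) for the 59 tested members, coloured by factor; dashed lines are medians of all genes, at -0.27 and -0.11. EEF2 and EEF1A2 lie at the top (0.56 and 0.54 in knockout cells), with -0.01 and -0.04 in wild-type cells. EIF4G2 and EIF1AX lie at the bottom (-0.78 and -0.84 in knockout cells). No member passed the threshold in either kind of cell.

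Without STING, knockout cells differed from wild-type cells in 0 members by limma's adjusted p (0.0326% of all genes higher and 0.0163% lower). At an unadjusted p under 0.05 there were 7 higher (4.38% of all genes) and 4 lower (7.99%), and groups did not overlap for 10 higher (12.5%) and 17 lower members (25.8%). Of the 7, 5 were elongation factors: EEF1A1, EEF1A2, EEF1D, EEF1G and EEF2. EEF2 stood at 200 and 228 in wild-type and at 327 and 404 in knockout cells (log2 change 0.77, SE 0.20, limma adjusted p = 0.234). EEF1D stood at 268 and 232 against 399 and 378 (log2 change 0.64, SE 0.16, limma adjusted p = 0.226). EEF1A2 stood at 1.82 and 2.97 against 4.47 and 7.60 (log2 change 1.04, SE 0.32, limma adjusted p = 0.280). The median over 8 elongation factors was 0.52 and 0.02 over eIF3, against -0.09 over all genes. It was 0.69 and 0.47 for the elongation factors with median-of-ratios scaling and quantile normalization.

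Lower in knockout cells at an unadjusted p under 0.05 were EIF5, EIF3J, EIF4ENIF1 and EIF2B5. EIF5 stood at 23.3 and 36.1 in wild-type against 11.6 and 18.6 in knockout cells (log2 change -0.93, limma adjusted p = 0.366). EIF2B5 stood at 22.3 and 22.9 against 15.9 and 15.8 (log2 change -0.49, limma adjusted p = 0.358). All 5 eIF2B subunits lay below the median of all genes (-0.09), with a median of -0.42. With median-of-ratios scaling and quantile normalization the eIF2B median was -0.26 and -0.28, against 0.05 and -0.004 over all genes. EIF2S1 stood at 5.07 and 10.1 against 4.09 and 7.01 and overlapped (limma adjusted p = 0.721). A marker of the line itself moved with these groups: KRT8, a keratin, was at 15.6 and 18.6 in wild-type and at 54.7 and 65.2 in knockout cells (log2 change 1.75, SE 0.19, limma adjusted p = 0.0444). It missed the threshold when any 1 of the 8 libraries was left out (limma adjusted p from 0.0857 to 0.270). Summed HEK293 markers ran from 177 to 510 FPKM over the 8 libraries, and their part in the members' values was not tested.

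**Figure D5:**
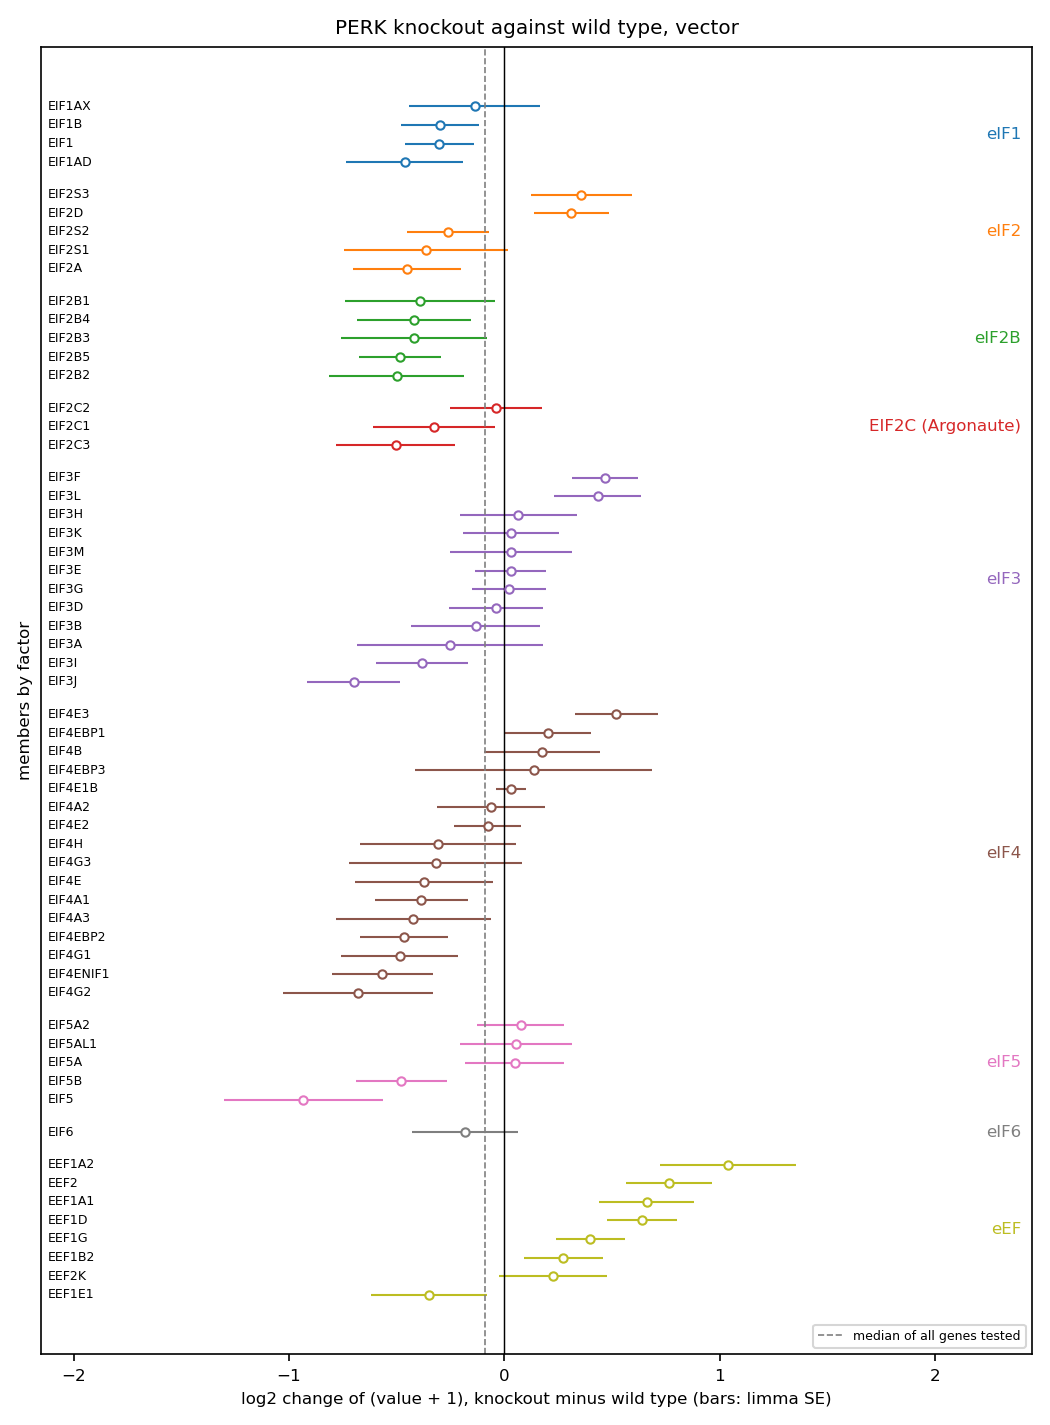
Log2 change of (value + 1), knockout minus wild-type cells with vector, for the 59 tested members of the knockout experiment by factor, with limma standard errors; no point is filled because none passed an adjusted p of 0.05. Of 8 elongation factors 7 lie right of 0, led by EEF1A2 (1.04) and EEF2 (0.77), and all 5 eIF2B subunits lie left of it. The dashed line is the median of all genes tested, at -0.09.

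In the knockout experiment the TOP list is not separate from the elongation factors, since EEF1A1, EEF1B2, EEF1D, EEF1G and EEF2 are in both. Its median log2 change was -0.05 with STING in wild-type cells, 0.08 with STING in knockout cells and 0.40 in knockout against wild-type cells with vector, where all 9 values were above 0. The other members had medians of -0.37, -0.23 and -0.30. With median-of-ratios scaling the TOP list stood at 0.34, 0.27 and 0.58, and with quantile normalization at 0.16, 0.29 and 0.33, so its value in wild-type cells turned from below to above 0. Medians of members with a pyrimidine run at the start were -0.19, 0.00 and 0.22, against -0.40, -0.29 and -0.36 without it. With median-of-ratios scaling they were 0.18, 0.18 and 0.40 against -0.03, -0.11 and -0.21, and with quantile normalization 0.16, 0.23 and 0.27 against -0.10, -0.15 and -0.26, so the sign with the run turned in wild-type cells. In each of the 3 comparisons 0 of the 9 TOP members passed with limma, and at an unadjusted p under 0.05 there were 0, 1 and 5 higher and none lower.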

How the data were processed

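Deposited FPKM values of polysome-fraction RNA (poly-T priming and Smart-seq2, per the labels' protocols) were used as the authors gave them, with TopHat2 2.1.1, Cufflinks 2.2.1 and hg19 per the submitters' processing notes. The knockout table names no unit; its values were taken to be FPKM in which anything under 1 was raised to 1. Gene annotation is not given in the sources used here. Depth is unknown. Each column had a sample (0 without). Tables were tested separately with limma 3.58.1 (R 4.3.3) on log2(value + 1), with a mean of 1 or more over the table and some variation required, each group with its own mean, with intensity trend and robust estimation, two-sided, and Benjamini-Hochberg adjustment over all genes at 0.05. Such changes understate those of low genes. Simulated data were used to try the test of STING against vector in the first experiment and in wild-type cells, without the filter on the mean. The other comparisons were not simulated. Named are members past the threshold, the most abundant and most changed of each factor, and fixed core genes. Other genes were named after their values were seen. The members and lists were chosen with earlier results of these data known. Starts came from RefSeq (GRCh38.p14) and lengths from GENCODE 29.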

Additional observations from a re-analysis of the deposited data

Results flagged for a closer look

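EEF1G, as deposited, lay on opposite sides of its vector libraries with STING in wild-type and knockout cells. In wild-type cells it was listed at 1948 and 2021 FPKM with vector against 1895 and 1934 with STING, and at 2509 and 2730 against 3320 and 3113 in knockout cells. Both STING libraries were below both vector libraries in the former and above them in the latter. The difference of the 2 effects was 0.35 on the log2 scale (SE 0.23, limma adjusted p = 0.966) and did not pass. Such opposite, non-overlapping groups were seen for 318 of 12254 genes (2.60%). The opposition depended on the scaling: in wild-type cells the log2 change was -0.05 as deposited, 0.34 with median-of-ratios scaling and 0.03 with quantile normalization, and in knockout cells it was 0.30, 0.49 and 0.33. With median-of-ratios scaling the wild-type values were 1737 and 1621 with vector against 2113 and 2129 with STING, the same direction as in knockout cells.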

How the results depend on the processing

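In the first experiment the count of 10 higher members was 9 to 15 with a pseudocount of 0.1 or 5, a mean of at least 5, median-of-ratios scaling, quantile normalization, and a transcript length correction that was chosen after seeing the data. It was 4 with no filter on the mean and 0 with no trend or robust estimation. Calls were also lost when 1 library was left out, in fits with 1 library in a group. The count of 1 lower member, EIF3K, was 0 with no filter, with median-of-ratios scaling, with quantile normalization, with no trend or robust estimation and with the length correction. With any 1 library left out EIF3K also missed the threshold. With quantile normalization EIF3K turned to 0.0360 and TUFM to 0.0574, and the cause was not tested. The 10 higher members kept their sign in each of the alternative fits that tested them. In the knockout experiment all counts were 0 under the alternatives run, except under the replicate block. Replicate numbers were not taken to pair the libraries, since not every correlation exceeded 0.1: same-numbered libraries' deviations from group means correlated with r of 0.0741 in the first experiment and 0.0421 to 0.528 in the second. With the replicate block 13 members were higher and 1 lower in the first experiment, 1 (EEF2, log2 change 0.77, limma adjusted p = 0.0453) was higher in knockout against wild-type cells with vector, and 0 passed in the other comparisons. The counts of members at these settings stand without the share of all genes called, so they cannot be set against other genes. Scaling to spike-ins was not run, as the table used here lists 0 spike-in entries. With 2 libraries a group, few libraries limit what these tests can detect.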
